A study of Mus musculus with 12 samples.

Results

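Lesions of the mouse tongue made by 4-nitroquinoline 1-oxide (4-NQO), pooled over 3 histological stages, were compared with normal tongue epithelium across all genes. All 12 samples of the series entered the comparison, as 9 lesion samples (3 hyperplasia, 3 dysplasia and 3 tumor) against 3 samples of normal mucosa, and the genes described are those with every treated mouse on the same side of every normal mouse. All animals were male CBA mice. For 8 weeks the drinking water of the 9 treated mice held 100 ug/mL of 4-NQO, which the 3 controls did not receive. The labels give as ages, where the study's text speaks of weeks of sampling, 24, 12 and 20 weeks for normal 1 to 3, 20, 16 and 20 weeks for the hyperplasia mice, 16, 24 and 16 weeks for the dysplasia mice and 20, 16 and 24 weeks for the tumor mice. Epithelial cells were cut from frozen tongue sections with a laser, their RNA was amplified, and each mouse was read on 1 Affymetrix Mouse Gene ST 2.0 array. A value is a log2 expression level, so that a difference of 1 stands for a change by a factor of 2. The p-values measure the spread between these mice.

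The upper surface of the mouse tongue is a stratified squamous epithelium set with filiform papillae, hair-like spines that hold hard keratins and keratin-associated proteins of the kind found in hair and nail. Its basal cells divide, and their daughters move up, change the keratins they make, and end as flat cells with a cornified envelope of cross-linked proteins such as loricrin, filaggrin and the small proline-rich proteins. 4-NQO is turned by the cells into a reactive product that binds to DNA bases, chiefly guanine, and it also raises reactive oxygen. NRF2, a transcription factor that responds to reactive chemicals, drives genes of glutathione synthesis and of NADPH supply, and keratinocytes of wounded or inflamed epithelium switch on the keratins 6, 16 and 17 and the alarmins S100A8 and S100A9.

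All 10 squamous epithelium genes looked up to check the label (Krt5, Krt14, Krt15, Trp63, Krt4, Krt13, Krt6a, Dsg3, Sfn and Perp) lay above the median of their array in all 12 samples, and Krt5, a basal keratin, ranged from 11.46 to 12.54. Array medians ranged from 6.16 to 6.35 and the 5th percentile of each array from 3.00 to 3.38, so levels near 3 are at the dim end of the array and a fall that ends there may be larger than its value. The mean of 22 skeletal muscle markers was 8.73, 6.14 and 7.91 in normal 1, 2 and 3 and 5.82 to 8.48 in the lesions, so the groups overlapped, and limma called 0 of the 22, with 5 at an unadjusted p under 0.05. The mean of 13 endothelial markers was 6.04 to 6.33 in normal mucosa and 6.20 to 7.31 in lesions, and that of 4 red blood cell markers 7.69 to 8.58 against 5.97 to 7.82. The endothelial cadherin Cdh5 was called higher (1.09, adjusted p = 0.0303), and the globin genes Hbb-b1 and Hbb-bs, near-identical copies, were called lower (-3.51 and -3.04, adjusted p = 0.0142 and 0.0128), all with overlap. The mean of 16 fibroblast markers was at least 7.22 in normal mucosa and 6.37 to 7.54 in lesions, with overlap, and 1 of them, the matrix proteoglycan Dcn, was called lower with overlap (-2.59, adjusted p = 0.0197). The part of these cells in the results below was not tested. T and NK cell markers had their highest mean, 7.32, in dysplasia 1, against 5.61 to 6.23 in the other 8 lesions. In such cut tissue, fewer cells of a type and less RNA per cell cannot be told apart.

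Of 24477 genes tested with limma, 193 were called higher in lesions (0.788% of all genes) and 301 lower (1.23%), at a Benjamini-Hochberg adjusted p of 0.05. Without any test, 483 genes (1.97%) were higher in each of the 9 lesion samples than in each of the 3 normal samples and 708 (2.89%) were lower in each. Both conditions were met by 164 genes on the higher side (0.67%) and 257 on the lower side (1.05%). These 421 are called shared genes below. Falls reached further than rises, since 186 of the 257 fell by over 1 on the log2 scale and 17 by over 4, against 103 and 4 of the 164 that rose. The empty gap between the nearest lesion and the nearest normal sample had a median of 0.29 for rises and 0.37 for falls, and exceeded 2 in 2 genes that rose and 4 that fell. At the edge of the rule, Lipm, a lipase of the upper epidermis, cleared it by 0.0015 and Lix1l missed it by 0.0008.

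The call rested on few normal mice. Leaving out normal 1, 2 or 3 kept the call for 82, 125 and 201 of the 421 shared genes, and leaving out 1 lesion sample kept 267 to 416, the highest number without dysplasia 1. With all 12 samples left out in turn, 15 shared genes that rose and 56 that fell were called each time. With the RNA integrity number (RIN) as a covariate 91 of the 421 were called while the median difference was 93% of that without it. Sample preparation day was nearly confounded with the groups, since only 1 day held a normal and a lesion sample, normal 2 and tumor 1. With 1 mean for all lesions 334 of the 421 were called, and with that and day as a fixed block 21 were. The difference in that last fit is tumor 1 minus normal 2 alone. Its median of 122% of the main difference thus compares 1 mouse with 1 mouse. With the muscle marker mean as a covariate 146 of the 421 were called, at a median of 99.9% of the difference. None of the 421 changed sign in any of the 27 alternatives, apart from 41 genes that were not tested when the 30% dimmest probe sets were left out. Because these genes do not overlap, their sign could not change in fits that left out samples or used day as a fixed block. The part of muscle RNA, RNA integrity and day in these differences was not tested beyond those fits.

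**Figure D1:**
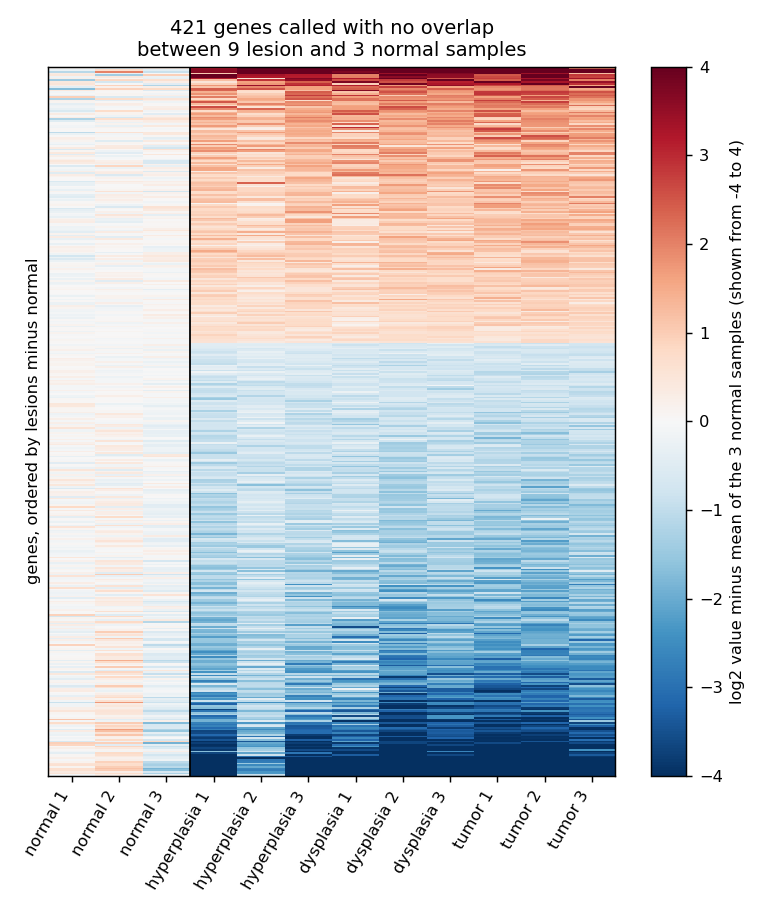
Heat map of the 421 shared genes (rows, ordered by lesions minus normal) in the 12 samples (columns), colored by the log2 value minus the mean of the 3 normal samples and shown from -4 to 4. The 164 genes at the top are higher and the 257 below are lower in every lesion column, with the palest columns in hyperplasia 2 and dysplasia 1.

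When each stage was set against the same 3 normal mice, 16 genes were called for hyperplasia, 187 for dysplasia and 483 for tumor. The 16 called for hyperplasia were called at every stage (0.0654% of all genes), 5 higher and 11 lower. These comparisons share their normal samples. The 5 that rose were S100a9, S100a8, Slc7a11, Lrrc8b and Apex2. The 11 that fell were Gm11567, Fmo2, Slc10a4l, Tmem45a2, Cyp2f2, Gngt1, Far2, Selenbp1, Serpinb13, Ano2 and Emp1. All 16 were called with each of the 12 samples left out in turn.

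S100a8 and S100a9 encode the 2 subunits of calprotectin, a calcium- and zinc-binding alarmin of neutrophils and of stressed keratinocytes. S100a9 lay at 6.45, 6.30 and 6.41 in normal 1, 2 and 3, and in lesions from 10.69 through a median of 12.61 to 13.16. Every lesion was thus at least 4.24 above every normal sample, the widest gap of any shared gene. The rise was 6.05 (standard error 0.32, limma adjusted p = 4.76e-06), or 66.3-fold. S100a8 lay at 7.48, 8.42 and 7.31 in normal mucosa and from 11.35 through 12.66 to 13.25 in lesions, a rise of 4.86 (standard error 0.28, adjusted p = 5.67e-06). Hyperplasia 1 was the lowest lesion for both genes. The mean of 13 other neutrophil markers was 5.44 to 5.72 in normal mucosa and 5.36 to 5.87 in lesions, with overlap, and limma called 0 of the 13, with 2 at an unadjusted p under 0.05. Ly6g, a defining neutrophil gene, was at 6.35, 5.63 and 3.99 in normal mucosa and had a difference of -0.94 (adjusted p = 0.569).

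The genes are neighbors on chromosome 3, and their RefSeq promoters (GRCm38.p6, 250 bases before to 50 after the annotated start) are shown because they rose together. Capitals mark TATAAA, the letters of the TATA box, searched on both strands. Counted from 0 at the annotated start, TATAAA begins at position -30 in S100a8 (chr3:90668821-90669120, plus strand) and at 0 in S100a9 (chr3:90695672-90695971, minus strand). In S100a9 the letters thus lie at the annotated start and not before it.
S100a8: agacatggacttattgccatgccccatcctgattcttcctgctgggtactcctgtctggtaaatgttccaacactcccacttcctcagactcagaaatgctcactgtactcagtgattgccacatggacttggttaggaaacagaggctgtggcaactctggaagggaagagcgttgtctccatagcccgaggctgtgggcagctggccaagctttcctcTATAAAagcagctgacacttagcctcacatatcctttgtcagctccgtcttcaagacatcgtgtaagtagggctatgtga
S100a9: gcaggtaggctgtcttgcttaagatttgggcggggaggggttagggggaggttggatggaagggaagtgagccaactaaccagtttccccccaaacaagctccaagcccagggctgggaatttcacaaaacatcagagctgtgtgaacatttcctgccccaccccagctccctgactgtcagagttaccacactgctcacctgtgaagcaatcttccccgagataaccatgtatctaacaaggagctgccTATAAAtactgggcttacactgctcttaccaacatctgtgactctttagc
TATAAA occurred in 15.1% of 119 promoters of shared genes that rose and in 12.7% of 17466 promoters of measured genes. The longest stretch common to both windows was 11 bases.

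Slc7a11 is the cystine importer that feeds glutathione synthesis, and a target of both NRF2 and the amino acid stress factor ATF4. It lay at 7.95, 8.54 and 7.85 in normal mucosa and from 10.15 through 11.31 to 12.42 in lesions. The rise was 3.24 (standard error 0.40, adjusted p = 0.00301), with the lowest lesion, dysplasia 1, still 1.62 above the highest normal sample. The stage differences were 3.44, 3.05 and 3.22 for hyperplasia, dysplasia and tumor. Its promoter (chr3:50443564-50443863, minus strand) is shown for 2 copies, facing opposite ways, of TTGCATCA, the composite element at which C/EBP and ATF factors bind. They are in capitals.
Slc7a11: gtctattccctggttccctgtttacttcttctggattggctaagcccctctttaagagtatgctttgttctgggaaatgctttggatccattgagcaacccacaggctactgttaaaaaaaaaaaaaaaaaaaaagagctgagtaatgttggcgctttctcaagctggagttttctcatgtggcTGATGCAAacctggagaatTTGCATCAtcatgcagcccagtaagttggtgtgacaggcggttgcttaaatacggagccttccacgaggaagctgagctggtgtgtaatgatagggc
The copies begin at positions -66 and -47. This motif was looked for after the sequence had been read. It occurred in 0.813% of all measured promoters, in 1.68% of those of shared genes that rose and in 1.1% of those that fell.

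The remaining rises at every stage were smaller. Lrrc8b, a subunit of the volume-regulated anion channel, went from 6.17 to 6.47 in normal mucosa to 7.64 to 8.40 in lesions, a rise of 1.65 (standard error 0.17, adjusted p = 0.00101). Apex2, an endonuclease of base excision repair, went from 4.26 to 4.62 to between 5.27 and 6.34, a rise of 1.33 (standard error 0.19, adjusted p = 0.006). Apex2 was the only 1 of 32 DNA repair and damage signalling genes called, against a median difference of 0.15 for that list and -0.04 over all genes.

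Fmo2, a flavin monooxygenase that oxidizes drugs and other foreign chemicals, lay at 10.88, 11.17 and 10.77 in normal mucosa and from 4.75 through 6.04 to 8.08 in lesions. The fall was -4.83 (standard error 0.44, adjusted p = 0.000438), and the highest lesion was hyperplasia 2. Cyp2f2, a cytochrome P450 known for bioactivating aromatic chemicals in mouse airway, lay at 8.25, 8.69 and 9.73 and then from 4.08 through 5.23 to 6.78, a fall of -3.66 (standard error 0.39, adjusted p = 0.00121). Of 26 phase I oxidation genes 4 were called lower (15.4%, against 1.23% of all genes) and 0 higher, with a list median of -0.19. The 4 were Fmo2, Cyp2f2, Fmo1 and Cyp4b1. Fmo1 also fell (adjusted p = 0.0246, lost without normal 1 or normal 2) and Cyp4b1 by 0.80 (adjusted p = 0.049). The call of Cyp4b1 was kept in only 1 of 12 fits with a sample left out. Leaving out samples gave 2 to 4 called lower in this list.

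Of the other falls at every stage, Gngt1 and Slc10a4l had the cleanest separation. Gngt1, the gamma subunit of the rod photoreceptor G protein transducin, lay at 7.08, 7.32 and 6.80 and then at a median of 3.51 and at most 4.12 (difference -3.59, standard error 0.29, adjusted p = 0.000149). Slc10a4l, annotated in RefSeq as a transcribed pseudogene, lay at 7.83, 7.78 and 7.22 and then from 2.20 through 3.01 to 3.63. Its gap of 3.59 was the widest among genes that fell (difference -4.66, standard error 0.32, adjusted p = 3.08e-05), and in lesions both genes were at the dim end of the array. Neither is a usual epithelial marker. Tmem45a2 lay from 9.71 to 10.56 in normal mucosa and from 4.29 to 7.27 in lesions (difference -4.60, standard error 0.45, adjusted p = 0.000583).

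Far2, a fatty acyl-CoA reductase of wax synthesis, fell by 3.18 (standard error 0.33, adjusted p = 0.000874), from 7.63 to 8.83 in normal mucosa to 4.27 to 6.08 in lesions. Selenbp1, a selenium-binding methanethiol oxidase lost in many carcinomas, fell by 2.17 (standard error 0.22, adjusted p = 0.000821), and hyperplasia 2 at 9.55 was the nearest lesion to the lowest normal value of 10.50. Serpinb13, a protease inhibitor of stratified epithelium also called headpin, fell by 2.16 (standard error 0.20, adjusted p = 0.000438), with all 9 lesions between 3.57 and 4.37 and all 3 normal samples between 6.08 and 6.28. Ano2, a calcium-activated chloride channel, fell by 1.76 (adjusted p = 0.00187). Emp1, a membrane protein of squamous differentiation, fell by 1.57 (standard error 0.20, adjusted p = 0.00301) and by nearly the same in each stage, 1.56, 1.54 and 1.62.

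**Figure D2:**
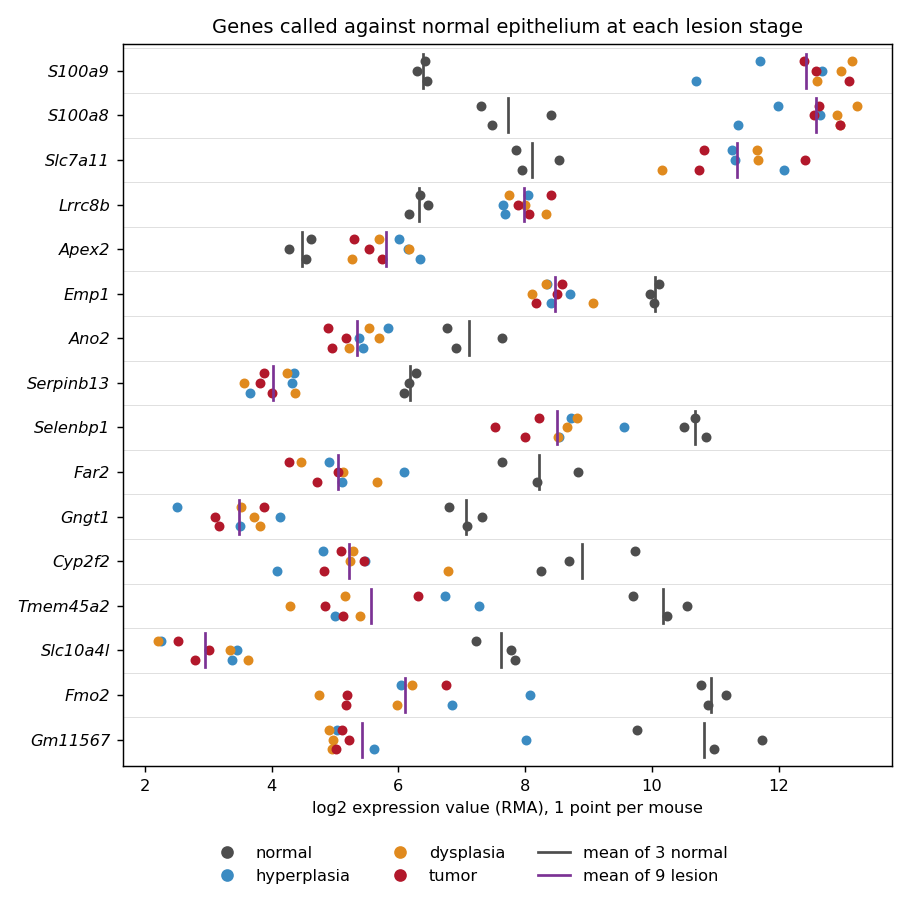
Log2 values of the 16 genes called at each stage against normal mucosa, with 1 point per mouse colored by group and vertical lines at the means of the 3 normal and 9 lesion samples. No lesion point crosses a normal point, and S100a9 has the widest gap, 4.24.

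Many of the largest falls were in hard keratin and keratin-associated protein genes, the hair-type proteins of filiform papillae. Of 25 measured, 18 were called lower (72%, against 1.23% of all genes) and 0 higher, and the list median was -3.01. Of the 18, 11 had no overlap, while 1.05% of all genes were called lower with no overlap. Krtap4-2 lay at 11.39, 11.34 and 10.36 in normal mucosa. In lesions it ran from 2.89 through a median of 4.20 to 8.72, a fall of -6.61 (standard error 0.74, adjusted p = 0.0017). Krtap4-1 and Krtap4-7 fell by 6.08 and 6.02 (adjusted p = 0.00301 and 0.00477). Krtap2-4 fell by 5.62 (adjusted p = 0.00829), lost without normal 1 or normal 2. Krtap4-2, Krtap4-1, Krtap4-7, Krtap4-6 and Krtap1-5 were called in all 27 alternatives, as were only Gm11563, Gm11567, S100a8 and S100a9 besides. Among the hair keratins themselves, Krt34 fell by 3.52 (adjusted p = 0.0073), Krt36 by 3.08 (adjusted p = 0.0379), Krt84 by 3.01 (adjusted p = 0.0323) and Krt35 by 1.84 (adjusted p = 0.00477). Krt34 and Krt35 kept their call with any sample left out, Krt36 in 3 and Krt84 in 5 of 12 such fits. The probe sets of this family read near-identical copies, so the members cannot be taken as separate measurements.

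Hyperplasia 2 lay between the groups in this family. Its Krtap4-2 value of 8.72 stood far above the other 8 lesions, which ran from 2.89 to 4.55, yet below the lowest normal value of 10.36. For Krtap4-6 it lay at 8.75 against 3.82 to 4.75 in the other lesions, and for Gm11563 at 8.84 against 3.42 to 4.36. Over all 421 shared genes hyperplasia 2 was the lesion nearest to the normal samples in 173 (41.1%) and dysplasia 1 in 79 (18.8%), and normal 3 was the normal sample nearest to the lesions in 217 (51.5%). Normal 1, normal 3, hyperplasia 2 and dysplasia 1 were the 4 samples with a RIN under 6, and the part of RNA integrity in their position was not tested. Of 73 called genes that did overlap, 66 were crossed by 1 lesion sample, hyperplasia 2 in 35 of them. Without hyperplasia 2, 20 of the 25 hard keratin and keratin-associated genes were called lower. Leaving out normal 1 or normal 2 gave 7. With RIN as a covariate 7 were called, and with the muscle marker mean 10.

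In the RefSeq order of genes, 7 consecutive measured genes on chromosome 11 (Krtap2-4, Gm11562, Krtap4-1, Krtap4-2, Krtap4-7, Gm11563 and Krtap4-6) were all shared falls. A second run nearby held 4 (Gm11568, Gm11559, Krtap9-1 and Gm11567). Gm11563 fell by 6.64 (standard error 0.82, adjusted p = 0.00301), Gm11559 by 5.92 (adjusted p = 0.00466) and Gm11567 by 5.40 (standard error 0.52, adjusted p = 0.000583). The other runs of at least 3 were Serpinb3c, Serpinb11 and Serpinb7 on chromosome 1, 5 genes from Lce1b to Lce1e on chromosome 3, and, among rises, Sprr2h, Sprr2i and the pseudogene Sprr2j-ps on chromosome 3.

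Promoters of 2 members of the first run are shown because all 10 promoters found for the genes of both runs held TATAAA (in capitals), against 12.7% of all measured promoters. Outside the runs it occurred in 16.6% of 163 promoters of shared falls.
Krtap4-2: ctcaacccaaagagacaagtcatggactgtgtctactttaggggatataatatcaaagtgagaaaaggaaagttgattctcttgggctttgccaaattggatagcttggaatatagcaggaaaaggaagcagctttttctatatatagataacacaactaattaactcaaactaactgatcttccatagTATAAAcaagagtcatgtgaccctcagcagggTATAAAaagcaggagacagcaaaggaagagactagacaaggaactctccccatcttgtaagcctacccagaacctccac
Krtap4-6: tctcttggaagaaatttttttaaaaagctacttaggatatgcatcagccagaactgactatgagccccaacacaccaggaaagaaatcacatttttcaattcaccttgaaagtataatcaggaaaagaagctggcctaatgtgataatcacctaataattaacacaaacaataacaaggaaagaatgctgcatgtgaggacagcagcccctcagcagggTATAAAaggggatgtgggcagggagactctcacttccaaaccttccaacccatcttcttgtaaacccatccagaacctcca
Krtap4-2 is at chr11:99635035-99635334 and Krtap4-6 at chr11:99665911-99666210, both on the minus strand. The windows have in common a stretch of 19 bases that carries the TATA box, ccctcagcagggTATAAAa, and in it the box begins at -29 in Krtap4-2 and -31 in Krtap4-6. Krtap4-2 holds another at -61. CTTTGAA, a form of the site bound by LEF1, a factor of hair formation, occurred in none of these 10 promoters, in 5.52% of the promoters of shared falls and in 4.77% of all.

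A list of 13 papilla and hard keratin genes, regulators among them, had 3 called lower (23.1%, against 1.23% of all genes) and 0 higher. The list median was -0.73, and all 13 differences were below 0. Lef1 itself lay at 8.07, 8.11 and 8.45 in normal mucosa and from 5.99 through 6.84 to 7.76 in lesions, a fall of -1.43 (standard error 0.23, adjusted p = 0.0101), lost without normal 1 or normal 3. Dlx3, a homeobox factor of hair and enamel, lay from 9.90 to 10.14 and then from 7.81 to 9.25, a fall of -1.47 (standard error 0.21, adjusted p = 0.00624), and was called with any sample left out. Msx2 fell by 1.68 (adjusted p = 0.0137) but overlapped, since hyperplasia 2 at 7.18 exceeded 2 normal samples. Hoxc13, Foxn1 and Tchh did not overlap between the groups but were not called.

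The largest single fall was Lyg1, a goose-type lysozyme gene. It lay at 11.72, 12.09 and 11.55 in normal mucosa and from 2.98 through 4.36 to 10.85 in lesions, a fall of -6.82 (standard error 0.89, adjusted p = 0.00401). Hyperplasia 2, at 10.85, was close to normal, while the other 8 lesions lay at or below 6.43. The stage differences were -4.37, -7.98 and -8.12 in hyperplasia, dysplasia and tumor.

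**Figure D3:**
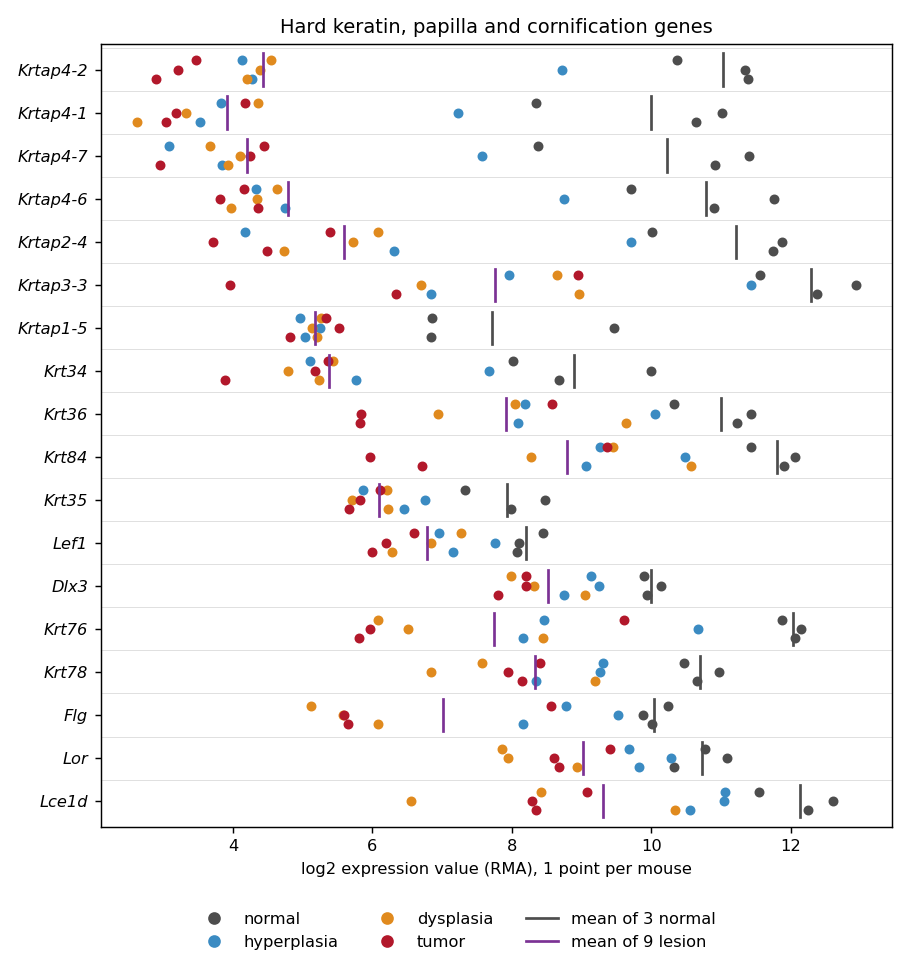
Log2 values of 18 shared falls: the 11 hard keratin and keratin-associated genes without overlap, the regulators Lef1 and Dlx3, and keratin and cornified envelope genes, with 1 point per mouse and lines at the group means. In the Krtap4 genes hyperplasia 2 stands alone between the other lesions and normal mucosa.

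The cornified envelope list split by gene family. Of 41 measured genes 5 were called higher (12.2%, against 0.788% of all genes) and 7 lower (17.1%, against 1.23%). None of these 12 overlapped, and the list median was -0.76. The rises were Sprr2d, Sprr2i, Sprr2f and Sprr2h, small proline-rich proteins that cross-link in the envelope of stressed or inner epithelia, and Cstb, which inhibits cysteine proteases. Sprr2d lay at 4.52, 4.05 and 4.73 in normal mucosa and from 6.54 through 10.41 to 11.87 in lesions, a rise of 5.63 (standard error 0.84, adjusted p = 0.00744). Its call was lost without normal 1 (adjusted p = 0.0508) and with the methods' t-test. It was lost too with weeks 20 and 24 only, without the 4 samples with a RIN under 6 and with day as a fixed block. The differences in those fits were 4.99, 5.86 and 6.14. Hyperplasia 1 (7.67) and tumor 3 (6.54) were well below the other 7 lesions, which lay at 10.00 or above. Sprr2i lay at 4.60, 7.68 and 4.82 and then from 9.35 to 12.01, a rise of 4.70 (standard error 0.65, adjusted p = 0.00509), and was called with any sample left out. Sprr2f rose by 3.60 (adjusted p = 0.0432), kept in 3 of 12 such fits, and Sprr2h by 2.60 (adjusted p = 0.0212), kept in 10. Sprr2 genes are near-identical copies.

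The falls in the same list were filaggrin (Flg), loricrin (Lor), periplakin (Ppl) and 4 late cornified envelope genes, Lce1b, Lce1c, Lce1d and Lce1g, again close copies. Flg lay at 10.01, 9.88 and 10.24 in normal mucosa and from 5.12 through 6.09 to 9.53 in lesions, a fall of -3.04 (standard error 0.53, adjusted p = 0.0131). The fall was small in hyperplasia (-1.22) and larger in dysplasia (-4.45) and tumor (-3.44). Lor fell by 1.71 (standard error 0.27, adjusted p = 0.00879) and its groups were only 0.05 apart. Lce1d fell by 2.83 (adjusted p = 0.0256). The count of called falls in this list ran from 0 without normal 2 to 19 without dysplasia 1, so it depends on single mice. Crnn, the envelope protein cornulin, named after its values were seen, fell by 4.40 (standard error 0.41, adjusted p = 0.000438) and was called with any sample left out.

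Krt76, a keratin of oral suprabasal cells, lay at 12.07, 12.16 and 11.88 in normal mucosa and from 5.81 through 8.16 to 10.67 in lesions. The fall was -4.29 (standard error 0.78, adjusted p = 0.0166), lost without any 1 of the 3 normal samples. Krt78 fell by 2.36 (adjusted p = 0.0101) and Krt80 by 1.88 (adjusted p = 0.0294), the only other called members of 21 (list median -0.43). The 3 calls were 14.3% of the list, against 1.23% of all genes. Without normal 1 or normal 2, and with RIN as a covariate, 0 of the 21 were called, and without normal 3, 1 was. Of 15 basal keratinocyte genes only Itga6, the laminin-binding integrin alpha 6, was called (rise 1.14, adjusted p = 0.0488), and hyperplasia 2 overlapped with normal mucosa. Krt15 had the largest difference among these, -1.81 (adjusted p = 0.193), and overlapped.

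Serine protease inhibitors and proteases of the upper epithelium were called in both directions. Among 31 antimicrobial peptide and protease inhibitor genes 2 were called lower (6.45%) and 1 higher (3.23%), with a median of -0.28. Over all genes these shares were 1.23% and 0.788%. Serpinb3c, a clade B serpin, lay at 10.42, 10.44 and 10.77 in normal mucosa and from 3.38 through 5.79 to 9.69 in lesions (difference -4.39, standard error 0.73, adjusted p = 0.0109). Tmprss11b, a membrane serine protease of squamous epithelia, rose by 2.78 (standard error 0.39, adjusted p = 0.00561) from 5.19 to 6.33 in normal mucosa to 6.43 to 10.24 in lesions. Against normal mucosa, hyperplasia, dysplasia and tumor differed by -2.23, -4.59 and -6.35 for Serpinb3c and 1.51, 3.14 and 3.70 for Tmprss11b.

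Of 25 genes of activated and stressed keratinocytes 7 were called higher (28%, against 0.788% of all genes) and 0 lower (median 0.65). The count was 3, 4 and 5 without normal 1, 2 and 3, 2 with RIN as a covariate and 3 with the muscle mean as a covariate. Besides the alarmins these were Krt6b, Krt16 and Krt17, the interleukin 36 gene Il1f9, and Ptgs2 (cyclooxygenase 2, 2.96, adjusted p = 0.0404), which overlapped. Krt6b lay at 11.53, 11.62 and 11.35 in normal mucosa and from 12.12 through 12.64 to 12.90 in lesions, a rise of 1.10 (standard error 0.18, adjusted p = 0.0101). Krt17 rose by 0.97 (standard error 0.16, adjusted p = 0.00921), called with any sample left out, and Krt16 by 0.65 (adjusted p = 0.039), kept in 2 of 12 such fits. All 3 keratins were near the top of the array in normal mucosa as well. Il1f9 rose by 1.34 (adjusted p = 0.031) and kept its call in 5 of 12.

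Of 36 genes listed for NRF2 targets, glutathione and NADPH 7 were called higher (19.4%, against 0.788% of all genes) and 0 lower. Above 0 were 30 of the 36 differences, with a median of 0.66 against -0.04 over all genes. Akr1b8, an aldo-keto reductase, lay at 6.43, 4.60 and 6.95 in normal mucosa and from 8.00 through 9.33 to 11.09 in lesions, a rise of 3.49 (standard error 0.65, adjusted p = 0.0187). Gclm, the modifier subunit of the rate-limiting enzyme of glutathione synthesis, rose by 1.45 (standard error 0.26, adjusted p = 0.0166), from 9.38 to 10.07 to between 10.25 and 11.52. Gstp1 and Gsta4, which join glutathione to foreign chemicals, rose by 1.36 (adjusted p = 0.0365) and 0.80 (adjusted p = 0.0284). Tkt (transketolase) rose by 1.03 (adjusted p = 0.0301) and Ugdh (UDP-glucose dehydrogenase) by 1.13 (adjusted p = 0.0382). Nqo1, Hmox1 and Txnrd1, often used as readouts of NRF2, had differences of 0.72, 0.33 and -0.20 and were not called. Only Slc7a11 kept its call without normal 1, and 1 to 8 of the 36 were called across the fits with a sample left out. With RIN as a covariate 1 was called, and with the muscle mean 2. TGACNNNGC, the core of the antioxidant response element, was found on either strand in 21.8% of 119 promoters of shared rises, 16.6% of 181 of shared falls and 13.4% of all measured ones. It can overlap with TGANTCA, the AP-1 site, which was found in 10.1%, 16% and 7.33%.

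All 32 mitosis genes had a difference above 0 (median 0.71, against -0.04 over all genes). The 5 called higher (15.6%, against 0.788% of all genes) were Ube2c, Bub1, Cdk1, Top2a and Cenpe. Ube2c, the E2 enzyme that the anaphase-promoting complex uses to tag cyclins, lay at 8.60, 8.58 and 8.63 in normal mucosa and from 8.98 through 9.93 to 11.07 in lesions. Its rise was 1.39 (standard error 0.23, adjusted p = 0.0109), lost without normal 1 or normal 2. Cdk1, the kinase that starts mitosis, rose by 1.11 (adjusted p = 0.0488), kept in 2 of 12 fits with a sample left out, and dysplasia 1 at 8.57 nearly met the highest normal value of 8.54. Without normal 1 or normal 2, 0 of the 32 were called, and without dysplasia 1, 9. With RIN as a covariate 0 were called, and with the muscle mean 1. Of 28 DNA replication genes 27 had a difference above 0, at a median of 0.29, and limma called 0, with 5 at an unadjusted p under 0.05. Rrm1, a subunit of ribonucleotide reductase, had the largest (0.92, adjusted p = 0.116). Of 23 p53 target genes only Gadd45a, a growth arrest and DNA damage gene, was called, and it was lower (-0.75, standard error 0.16, adjusted p = 0.0411, kept in 2 of 12).

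Growth factor signalling and metabolism gave a few calls. Of 30 genes of ERK feedback and AP-1, Fosl1, Ier3 and Phlda1 were called higher (10%, against 0.788% of all genes). Fosl1, a FOS family subunit of AP-1, lay at 7.19, 5.63 and 5.85 in normal mucosa and from 7.47 through 8.22 to 8.88 in lesions, a rise of 1.94 (standard error 0.33, adjusted p = 0.0111). Without normal 2 or normal 3, and with RIN as a covariate, 0 of the 30 were called, and without normal 1, or with the muscle mean as a covariate, 1 was. Ier3 rose by 1.36 (adjusted p = 0.0246) and Phlda1 by 1.06 (adjusted p = 0.0467). Slc2a1, the glucose transporter GLUT1, lay at 9.93, 9.69 and 10.05 and then from 10.82 through 11.42 to 12.33, a rise of 1.60 (standard error 0.18, adjusted p = 0.00194). It was called with any sample left out. With Adm (adrenomedullin, 1.70, adjusted p = 0.0468) it was the only call among 23 hypoxia and glycolysis genes (8.7%, against 0.788% of all genes). The median of that list was 0.18. Of 29 proteasome genes Psma1, Psma2 and Psma7, subunits of the core ring, rose by 0.84, 0.74 and 0.64 (adjusted p = 0.017, 0.0381 and 0.0365), and the list median was 0.33. These 3 calls were 10.3% of the list, against 0.788% of all genes. Without normal 1 or normal 2, and with RIN or the muscle mean as a covariate, 0 of the 29 were called, and without normal 3, 1 was. Of 28 respiratory chain genes limma called 0, with 4 at an unadjusted p under 0.05 (median 0.24).

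Inflammatory genes were called beside markers of immune cells. Of 27 chemokine, interleukin 1 and NF-kB genes 3 were called higher (11.1%, against 0.788% of all genes). Ccl2, a monocyte chemokine, lay at 5.75, 6.32 and 6.37 in normal mucosa and from 7.28 through 8.07 to 10.31 in lesions (rise 2.17, standard error 0.41, adjusted p = 0.0204). Il1b rose by 1.35 (adjusted p = 0.0432) and Cxcl16 by 1.18 (adjusted p = 0.0109). Without normal 1, and with RIN or the muscle mean as a covariate, 0 of the 27 were called, and without normal 2 or normal 3, 1 was. B2m, the light chain of MHC class I, was the only call of 31 interferon and antigen presentation genes (rise 1.67, standard error 0.33, adjusted p = 0.0263), and its groups were 0.01 apart. Of 16 T and NK cell markers, Cd3g was called higher (1.41, adjusted p = 0.02), and of 16 macrophage and Langerhans cell markers C1qc (1.45, adjusted p = 0.00879), both with overlap. The macrophage mean was 6.06 to 6.28 in normal mucosa and 6.21 to 7.13 in lesions. Of 10 mast cell markers Tpsab1, a tryptase, was called with no overlap (rise 1.68, standard error 0.25, adjusted p = 0.00737), while the mast cell mean was 5.12 to 5.83 against 5.08 to 5.96. Below 0 were 8 of the 10 mast cell differences, with a list median of -0.15. The part of immune cells in these rises was not tested.

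Other lists gave little. Stra6 and Dhrs3, a retinol receptor and a retinal reductase, fell by 1.05 (adjusted p = 0.012) and 0.89 (adjusted p = 0.0412) among 22 retinoid genes. Rarres1, a retinoid-responsive gene, was also called, at -1.30 (adjusted p = 0.0467) and with overlap. The 3 calls were 13.6% of the list, against 1.23% of all genes. Of 31 Wnt and Notch genes only Apcdd1, a Wnt inhibitor, was called, with overlap (-1.19, adjusted p = 0.0472). Below 0 were 28 of the 31 differences (median -0.40, against -0.04 over all genes). Of 23 barrier lipid genes Far2, Lipm and Sptlc3 were called lower (13%, against 1.23% of all genes), the last by 1.19 (adjusted p = 0.0471). Gjb2, the gap junction protein connexin 26, was the only call of 25 junction genes (rise 0.99, adjusted p = 0.041). limma called 0 of 26 matrix protease and epithelial-mesenchymal transition genes and 0 of 18 clock genes, with 7 of each at an unadjusted p under 0.05, and Plau (1.45, adjusted p = 0.0519) and Dbp (-0.95, adjusted p = 0.0561) had their largest differences.

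**Figure D4:**
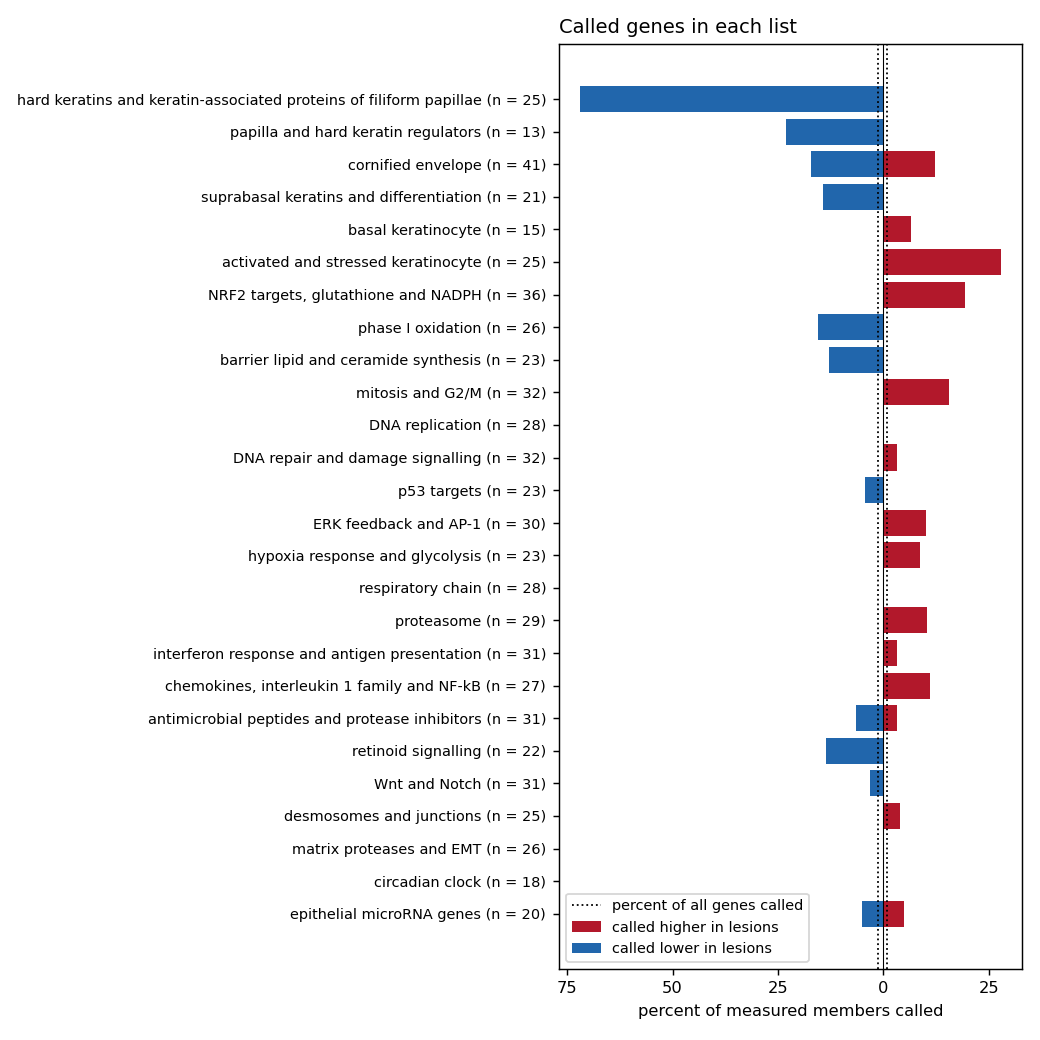
Percent of the measured members of each of 26 gene lists called higher (right of 0) or lower (left of 0) in lesions, with dotted lines at the percent of all genes called, 0.788 and 1.23. Hard keratin genes reach 72% on the lower side and activated keratinocyte genes 28% on the higher side.

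2 of 20 microRNA genes of epithelium were called. Their mature sequences, from RefSeq (GRCm38.p6), are shown because each has its own seed, bases 2 to 8 in capitals, and no seed is common to the 4.
mmu-miR-31-5p: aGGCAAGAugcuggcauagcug
mmu-miR-31-3p: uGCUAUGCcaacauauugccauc
mmu-miR-200c-3p: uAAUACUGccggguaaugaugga
mmu-miR-200c-5p: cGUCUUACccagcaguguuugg
miR-31-5p is at chr4:88910614-88910635 and miR-200c-3p at chr6:124718324-124718346, both on the minus strand. miR-31 is known as a microRNA raised in squamous carcinoma, and miR-200c as one that holds epithelial cells in their state by repressing Zeb1 and Zeb2. Whether the probe sets read the precursor or a mature arm is not given in the sources used here. Mir31 lay at 5.45, 5.34 and 4.89 in normal mucosa and from 5.80 through 8.44 to 9.18 in lesions, a rise of 2.93 (standard error 0.52, adjusted p = 0.0143). Hyperplasia 2, at 5.80, was only 0.34 above the highest normal sample, and the other 8 lesions were at 7.72 or above. Its call was lost without any 1 of the 3 normal samples. Mir200c lay at 7.35, 6.59 and 6.69 and then from 5.01 through 5.72 to 6.32, a fall of -1.04 (standard error 0.24, adjusted p = 0.0484), kept in 2 of 12 fits with a sample left out. Zeb1 and Zeb2 had differences of -0.12 and 0.12.

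Whether the lesions differed among themselves was asked with contrasts that leave the normal samples out of the difference. The F test among the 3 stages called 0 genes (0% of all, limma) and 1399 genes had an unadjusted p under 0.05, 5.72% of all. Among the 421 shared genes 88 (20.9%) had an unadjusted p under 0.05, in a test that uses the same estimate of spread as the test that chose them. The direction from hyperplasia to tumor was that of the lesions in 123 of the 164 rises (75%) and 225 of the 257 falls (87.5%), against 58.3% of all genes. The median difference from normal mucosa of the shared rises was 0.96 in hyperplasia, 1.11 in dysplasia and 1.21 in tumor, and that of the shared falls -1.06, -1.38 and -1.54. Hyperplasia 2 enters the hyperplasia values, and it was the lesion nearest to normal mucosa in 173 of the 421 (41.1%). The part of this 1 mouse in the order of the stages was not tested. All 3 stages were beyond 1 in 57 of the rises and 128 of the falls.

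Some shared genes, picked for the smallest range of their 3 stage means, were as far from normal in hyperplasia as in tumors. Their evenness is thus the rule that chose them and not a result. Ppard, a nuclear receptor for fatty acids, rose by 1.11, 1.10 and 1.08 in the 3 stages (lesions minus normal 1.10, standard error 0.16, adjusted p = 0.0073), from 6.80 to 7.02 in normal mucosa to 7.70 to 8.36. Cstb rose by 1.12, 1.11 and 1.06 (adjusted p = 0.0064) and was called with any sample left out. Porcn, the enzyme that adds the lipid Wnt proteins need for secretion, fell by 1.88, 1.94 and 1.84 (adjusted p = 0.0127), from 9.80 to 10.09 to between 7.25 and 8.65. Gm12191, a transcribed pseudogene, and H2al1o, a histone H2A-like gene of a family of close copies, were as even, with lesion differences of 1.24 (adjusted p = 0.0468) and -1.18 (adjusted p = 0.0438). In hyperplasia alone none of Ppard, Cstb, Porcn, Gm12191 and H2al1o was called against normal mucosa (limma adjusted p from 0.0718 to 0.265). Gm1110 had a gap of 1.76 and fell by 3.98 (adjusted p = 0.00296).

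**Figure D5:**
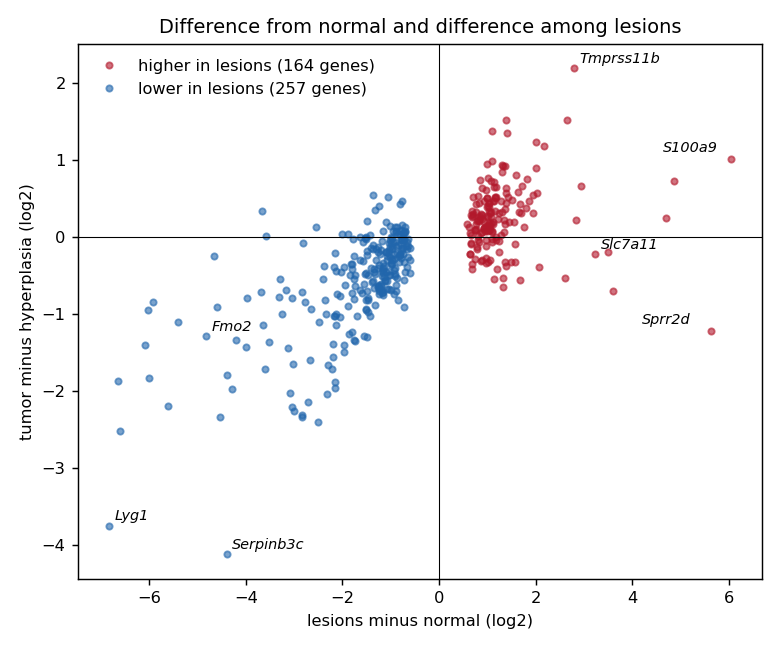
Lesions minus normal (x axis, log2) against tumor minus hyperplasia (y axis, log2) for the 421 shared genes, with 1 point per gene, red for rises and blue for falls. Most blue points lie below 0 (225 of 257) and most red points above (123 of 164), with Serpinb3c and Lyg1 at the bottom and Tmprss11b at the top.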

How the data were processed

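Epithelium microdissected from the tongues of 12 mice was read on 1 array each. The authors deposited log2 values of 24479 probe sets after quantile normalization by RMA (robust multi-array average); software versions, probe set definition and genome build are not given in the sources used here. Log2 values were used as deposited. Of the probe sets 23281 have 1 symbol and 1198 have none. Of probe sets with the same symbol the brighter on average was taken, so 2 were dropped, which left 24477 genes. No other probe was filtered out. RefSeq (GRCm38.p6) served for names, gene order and sequences, and 23156 Entrez gene IDs were found there. Sequences were taken from the first promoter listed for a gene. List genes without a probe set were not analysed here.

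limma 3.58.1 in R 4.3.3 fitted 4 group means over all 12 samples (8 residual degrees of freedom, prior degrees of freedom 4.22, prior SD 0.296). The contrast was the mean of the 3 lesion stages minus normal, two-sided, with Benjamini-Hochberg adjustment over all genes at 0.05, and every adjusted p is from limma. Counts were made in Python 3.11.15 with numpy 2.4.6 and pandas 2.3.3. Precision is limited by how many arrays there are. The fit was tested on simulated data.

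The genes named by rule are, among called genes without overlap, the 8 largest differences and 5 widest gaps in each direction, the 3 most even over stages in each direction among those beyond 1, and up to 3 of each gene list, or the member with the largest difference where a list has none. The 16 genes called at every stage, further members of the called lists, the genes in runs of neighbors, Crnn and Lix1l were named after their values were seen. Members, lists and rules were chosen with earlier results of these data known. Replicate numbers did not pair the mice. RIN and preparation day came from the study's sample table and entered alternatives only.

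27 alternatives were run: quantile normalization again, no dim probe sets, mean of probe sets, intensity trend, array weights, 1 mean for all lesions, the methods' t-test, RIN, labelled age in weeks or muscle signal as a covariate, day as a random block or, with 1 mean for all lesions, as a fixed block, replicate block, weeks 20 and 24 only, no sample with a RIN under 6, and each sample left out.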

Additional observations from a re-analysis of the deposited data

Results flagged for a closer look

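In groups of this size about 1 in 20 sets of values has an extreme sample by chance, and 80 named genes and 11 marker means were looked at over the 9 lesion samples. In 12 of them 1 lesion sample lay far from the other 8. Hyperplasia 2 was that sample in 8. It lay nearer to normal mucosa than the other lesions did, though beyond every normal sample, for Lyg1 (10.85 against 2.98 to 6.43 in the others), Gm11563 (8.84 against 3.42 to 4.36), Krtap4-2 (8.72 against 2.89 to 4.55), Krtap4-1 (7.23 against 2.62 to 4.35), Krtap4-7 (7.56 against 2.95 to 4.45), Krtap4-6 (8.75 against 3.82 to 4.75), Krtap2-4 (9.71 against 3.72 to 6.31) and Mir31 (5.80 against 7.72 to 9.18). The 4 Krtap4 genes are close copies, so they are not separate observations.

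Dysplasia 1 stood apart for the mean of T and NK cell markers (7.32 against 5.61 to 6.23), for the mean of macrophage and Langerhans cell markers (7.13 against 6.21 to 6.63) and for Dhrs3 (6.24 against 6.85 to 7.14). Hyperplasia 1 had the lowest Trbc2, a T cell receptor constant gene, at 7.06 against 9.50 to 11.61.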

How the results depend on the processing

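The main counts were 193 genes higher and 301 lower, 483 and 708 without overlap, and 0 among lesion stages. The study's methods name Student's t-test for continuous data in general, and here it was applied to genes. The study chose its own differential genes by an absolute log2 fold change over 1. Counts of higher and lower calls were 64 and 114 with the methods' t-test after adjustment, 31 and 70 with RIN as a covariate, 42 and 127 with the muscle mean as a covariate, 4 and 36 with day as a fixed block and 1 mean for all lesions, 22 and 121 with weeks 20 and 24 only, and 24 and 129 without the 4 samples with a RIN under 6. With 1 sample left out in turn they ran from 23 (without normal 1) to 330 (without dysplasia 1) and from 65 (without normal 1) to 477 (without dysplasia 1). Genes without overlap rose to 2130 higher and 3038 lower with weeks 20 and 24 only and to 4537 and 4104 without the low RIN samples, where fewer samples have to agree, and ran from 512 to 1010 and from 748 to 1570 with 1 sample left out. Genes called among stages numbered 1 without the low RIN samples and 0 to 2 with 1 sample left out.

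The other alternatives stayed within 1.5 times, among them 155 and 238 with the replicate block. Replicate numbers did not pair the mice, since deviations of mice with the same number correlated between -0.11 and 0.11, and the block result is given only here. Without the low RIN samples normal 2 alone stands for normal mucosa and is assumed to vary like the others. Among 64 named shared genes, 1265 of the values under alternatives kept their call and 459 lost it. None turned, which for fits that left out samples followed from the lack of overlap. Acta1, not called, went from -2.33 to 0.45 with day as a fixed block, a fit whose difference is tumor 1 minus normal 2 alone. The causes of the other changes were not tested, apart from the smaller number of samples where some are left out.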

Other observations

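Among shared genes outside the lists, and named after their values were seen, Fscn1, which bundles actin, lay at 6.06, 6.10 and 5.85 in normal mucosa and from 6.99 through 8.18 to 8.85 in lesions, a rise of 2.00 (standard error 0.26, limma adjusted p = 0.00365). Anxa1, a membrane-binding annexin, rose by 1.01 (adjusted p = 0.00892) and Ctsc, a lysosomal protease, by 1.94 (adjusted p = 0.0355, kept in 15 of 27 alternatives). Nmu, the peptide neuromedin U, lay at 10.50, 11.30 and 9.82 and then from 5.63 through 7.10 to 8.81, a fall of -3.65 (standard error 0.48, adjusted p = 0.00427). Nmu and Crnn were each called in 26 of 27 alternatives.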
